A study of Homo sapiens with 4 samples.

Results

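The ZNF genes are the human genes whose symbols are ZNF followed by a digit, most of which encode DNA-binding proteins with arrays of C2H2 zinc fingers. The rows examined were all those with such a symbol in the tables the authors deposited of genes and of transcripts called different between HRP2 knockdown and control cells. They were chosen by symbol from tables selected on the authors' Q value (under 0.05), so the measured values that chose them are those of this same comparison. They came to 14 of the 684 rows of the gene table and 22 of the 1040 rows of the transcript table, the latter from 18 genes, and 31 ZNF genes were named in one table or the other. Both groups were LP-1, an established t(4;14) multiple myeloma line labelled as B lymphoblast, carrying a lentiviral guide RNA construct: the control group (2 libraries) had a non-target guide and the knockdown group (2 libraries) a guide against HRP2, the chromatin reader encoded by HDGFL2. The labels do not say whether the cells were pools or clones, whether the guide edited or repressed its target, or whether replicate libraries stem from different cultures, and the authors' Q values may cover technical spread alone. No library-level values were used. Each value below is the authors' log2 fold change of knockdown over control (positive is higher in the knockdown) with the authors' Q value, a p-value adjusted for multiple tests, and carries no SD. Levels and sequencing depth could not be read from these values. Of 12 plasma cell marker genes, a list written after the tables had been seen, 4 were in the gene table. The share over all mRNA genes of the deposited gene list was 2.81%. All 4 were lower in the knockdown, against 47.2% of all genes in the table. They were TNFRSF13B at -0.74 (Q = 0.0293), IRF4 at -0.63 (Q = 0.00323), TNFRSF17 at -0.48 (Q = 0.0392) and SDC1 at -0.45 (Q = 0.0446). The other 8, PRDM1, XBP1 and CD38 among them, have no value in the gene table. In the transcript table only IRF4 of the 12 was named, and its called transcripts went both ways, at -1.04 (Q = 0.0108) and 1.93 (Q = 0.000426). The part of these markers in the ZNF values was not tested. HDGFL2 itself had a log2 fold change of -1.37 (Q = 2.99e-13) in the authors' deposited gene table.

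A C2H2 finger is a short fold held by a zinc ion between a pair of cysteines and a pair of histidines, and each finger of an array reads a few bases of DNA. Many of these proteins also carry a KRAB domain, which recruits TRIM28 and, through it, the histone methyltransferase SETDB1 and heterochromatin proteins, so that the bound locus is silenced. KRAB zinc finger genes multiplied by tandem duplication, lie in clusters that are densest on chromosome 19, and are best known for silencing transposable elements. ZNF proteins without KRAB include activators of transcription and proteins that bind RNA or act in mitosis.

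Membership in the tables was itself a call of this comparison, so directions and sizes of the rows describe the members and are not a test of them. The list of gene identifiers deposited with the tables named 516 ZNF genes of mRNA type, of which 14 (2.71%) were in the gene table, against 2.81% of all 24237 mRNA genes listed. The ZNF genes were thus called about as often as any other listed gene, although the list does not say which genes were tested. Of the 14 genes, 9 were higher and 5 lower in the knockdown (64.3% higher, against 52.8% of all genes in the table, and 35.7% lower, against 47.2%). Their median log2 fold change was 0.67, against 0.47 over the whole table, and 2 of 14 (14.3%) reached an absolute value of 1, against 21.8% of the table. All 14 were of mRNA type. The 2 members nearest the authors' limit of 0.05 were ZNF267 (Q = 0.0441) and ZNF143 (Q = 0.0424), and the table held no gene beyond it, its largest Q being 0.0495.

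**Figure D1:**
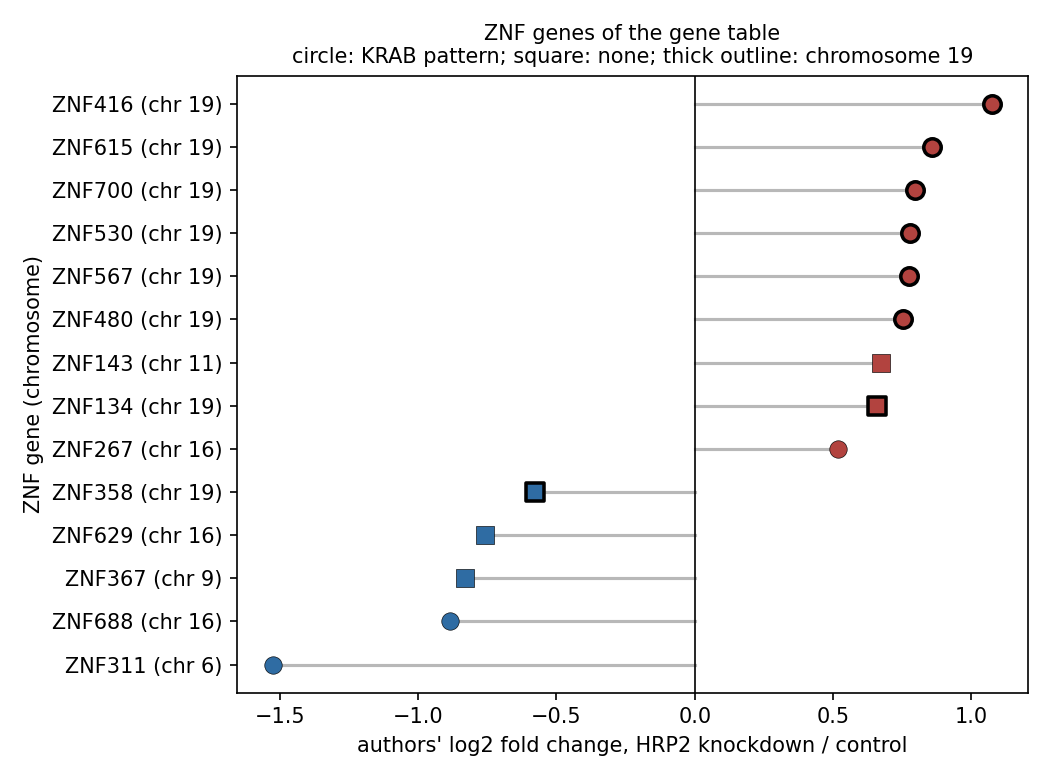
The authors' log2 fold change (x axis, knockdown over control) for each of the 14 ZNF genes of the gene table (y axis, with the chromosome), as circles where the longest protein held the KRAB pattern, as squares where it did not, and with a thick outline for genes on chromosome 19. The 9 higher genes lie between 0.52 and 1.07, and 7 of them are on chromosome 19, whereas 4 of the 5 lower genes are on other chromosomes.

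Most of the higher ZNF genes lay on chromosome 19, which holds 48.6% of all listed ZNF genes (251 of 516). It held 8 of the 14 called genes, not far from that share. Of these 8, 7 were higher in the knockdown, ZNF358 being the exception. Off chromosome 19, 2 genes were higher (ZNF143 and ZNF267) and 4 lower, and the median of these 6 was -0.80. The lead of higher over lower ZNF genes thus rested on chromosome 19. The other called genes of chromosome 19 went the opposite way: 6 of 33 (18.2%) were higher and 27 lower, and their median was -0.62 on the log2 scale. The share of listed ZNF genes that was called was 3.19% on chromosome 19 (8 of 251) and 2.26% elsewhere (6 of 265), and that of the other mRNA genes on chromosome 19 was 2.83% (33 of 1166), with 2.89% for all mRNA genes there.

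Among the 7 higher genes of chromosome 19, ZNF416 had the largest change in the authors' deposited gene table, at 1.07 or 2.10 times the control level (Q = 0.0257). ZNF615 followed at 0.86 (Q = 0.0392), ZNF700 at 0.80 (Q = 0.0161), ZNF530 at 0.78 (Q = 0.0375) and ZNF567 at 0.78 (Q = 0.0251). ZNF480 had the smallest Q of the group, 0.00308, with a log2 fold change of 0.75. ZNF134 was the lowest of the 7 at 0.66 (Q = 0.0273), or 1.58 times the control level. The 7 values lay close together, between 1.58 and 2.10 times the control level, and without a standard error their order cannot be judged. All 7 encode C2H2 arrays of 10 to 19 fingers, and each of them but ZNF134 carried the KRAB pattern.

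Several of these genes are neighbours, as ordered among protein-coding genes in the RefSeq annotation of GRCh38.p14. ZNF416, ZNF530 and ZNF134 stand within a run of 4 genes, in which the remaining one, ZIK1, another zinc finger gene, was not in the gene table. ZNF615 and ZNF480 are separated by 7 genes, 6 of them ZNF genes, and none of the 7 was called. The gene next to ZNF480 is ZNF610, a KRAB gene that was not in the gene table but had 1 transcript in the transcript table, at 2.51 (Q = 0.015). ZNF700 and ZNF567 stood apart from these and from each other. Calls were thus scattered within the clusters, and most ZNF genes of each cluster have no value here.

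The promoters of the neighbours on chromosome 19 that rose, ZNF416, ZNF530 and ZNF134, are shown because they share sequence. Each is given 5′ to 3′ from 250 bases before to 50 bases after the annotated start, from RefSeq on GRCh38.p14, a build other than the hg19 of the submitters' processing notes. Capitals mark TGAGAACTNCATTNCCCA and GCGGNACTTCCGG, where N is any base, which are the stretches of at least 13 bases in which all 3 promoters agreed at all but 2 positions or fewer. They were sought after the calls were known.
ZNF416 (chr19:57578862-57579161, - strand): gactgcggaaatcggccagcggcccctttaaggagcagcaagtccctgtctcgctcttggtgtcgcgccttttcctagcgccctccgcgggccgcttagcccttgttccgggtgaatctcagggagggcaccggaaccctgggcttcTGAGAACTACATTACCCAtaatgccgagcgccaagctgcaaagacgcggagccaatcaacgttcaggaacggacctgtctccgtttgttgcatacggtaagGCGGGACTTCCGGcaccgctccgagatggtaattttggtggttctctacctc
ZNF530 (chr19:57599635-57599934, + strand): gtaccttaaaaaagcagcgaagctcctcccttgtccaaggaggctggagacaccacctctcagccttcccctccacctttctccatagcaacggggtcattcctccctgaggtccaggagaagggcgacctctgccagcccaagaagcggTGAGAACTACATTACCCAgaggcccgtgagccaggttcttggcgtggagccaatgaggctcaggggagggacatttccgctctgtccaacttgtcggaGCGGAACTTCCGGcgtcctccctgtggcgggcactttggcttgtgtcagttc
ZNF134 (chr19:57613992-57614291, + strand): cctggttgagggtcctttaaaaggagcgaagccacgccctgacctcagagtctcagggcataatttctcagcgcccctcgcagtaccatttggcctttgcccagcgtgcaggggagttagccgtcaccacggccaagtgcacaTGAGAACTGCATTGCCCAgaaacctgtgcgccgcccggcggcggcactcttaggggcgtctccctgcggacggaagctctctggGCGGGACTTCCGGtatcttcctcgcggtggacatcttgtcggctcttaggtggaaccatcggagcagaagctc

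Counted from the transcription start, the first motif begins at -103 in ZNF416, -100 in ZNF530 and -107 in ZNF134. On either strand it occurred in 5 of 35116 promoters of this length (0.0142%), 4 of them of ZNF genes on chromosome 19, the 3 members included. Its last 13 letters, ACTNCATTNCCCA, were in a minority of ZNF promoters, mostly on chromosome 19. They were in 60 of the 647 ZNF promoters (9.27%), 47 of these on chromosome 19 (15.3% of the ZNF promoters there). In promoters of other genes the share was 0.374%. They were in the promoters of ZNF567 too, and so in 5 of the 15 promoters of the ZNF genes of the gene table (33.3%) and in 5 of the 9 of the higher ones (55.6%). Among promoters of ZNF genes of chromosome 19 that were in neither table they were in 14.1%, from 40 genes. Since the letters were picked from 3 of the called genes, these shares are no test of a link with the calls. The second motif, GCGGNACTTCCGG, was in 4.23% of ZNF promoters on chromosome 19 and 0.125% of promoters of other genes. Its last 8 letters, ACTTCCGG, which hold the core of an ETS site, were in 17.6% and 3.95% of them. None of the 5 lower ZNF genes, with 6 promoters, had any of these letter runs. The runs were picked from 3 of the higher genes, so this is no test of a link with direction. Over all ZNF promoters the 8-letter run was in 14.4% and the 13 letters of the first motif in 9.27%. At such shares 6 promoters are too few to show a lack of them. Promoters were found for 13 of the 14 genes, ZNF480 being the remaining one.

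ZNF143, on chromosome 11, was the only gene in both tables. It encodes a sequence-specific activator that binds near the start of many genes, small nuclear RNA genes among them, and lacks KRAB. In the authors' deposited gene table it was at 0.67, or 1.60 times the control level (Q = 0.0424), and its 1 called transcript was at 10.74 (Q = 1.36e-07). Gene and transcript therefore went the same way, by very different amounts. ZNF76, the paralogue of ZNF143, was not in the gene table and had 1 transcript at -8.42 (Q = 0.0265).

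The 5 lower genes were of several kinds. ZNF311, a KRAB gene on chromosome 6, had the largest change of any ZNF gene, at -1.52, or 0.348 times the control level (Q = 0.00619). ZNF367, on chromosome 9, encodes a transcription factor with only 2 C2H2 fingers, and had the smallest Q of the 14 genes, with a log2 fold change of -0.83 (Q = 0.000384). ZNF688 and ZNF629, on chromosome 16, were at -0.89 (Q = 0.0292) and -0.76 (Q = 0.0133). ZNF358, the lower gene of chromosome 19, was at -0.58 (Q = 0.0157), or 0.669 times the control level. None of these values overlapped those of the higher genes, which the sign of the change fixes.

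On chromosome 16 the members stood near each other too. ZNF688 and ZNF629 are separated by 9 protein-coding genes, and ZNF629 and ZNF646, which had 1 transcript at -8.69 (Q = 0.0354), by another 9. None of these 18 genes, among them ZNF785, ZNF689, ZNF668 and the chromatin genes SRCAP and SETD1A, was in the gene table. ZNF267, a KRAB gene 22 genes further along, was higher instead, at 0.52, or 1.43 times the control level. The other called genes of chromosome 16 were mostly lower, 23 of 37. On chromosome 6 ZNF311 and ZNF391, whose 1 called transcript was at -9.25 (Q = 0.00436), are separated by 35 genes with none called.

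In the gene table, ZNF genes with and without the KRAB pattern were called at similar shares. In the transcript table the share was lower for those with it. A search of the longest translated coding sequence of each gene for the KRAB A box found it in 309 of 510 listed ZNF genes (60.6%), in 82.3% of those on chromosome 19 and in 40.1% of the rest, and in 18 genes without a ZNF symbol. Of the 309, 9 were called (2.91%), 7 higher and 2 lower. Of the 201 without it, 5 were called (2.49%), 2 higher and 3 lower. A called transcript was found for 7 of the 309 (2.27%) and for 11 of the 201 (5.47%), against 3.62% of all mRNA genes listed, and the difference between these shares was not tested. All 6 members of the gene table on chromosome 19 with the KRAB pattern were higher, as was 1 of the 2 without it there (ZNF134, with ZNF358 lower). Elsewhere 1 of 3 members with the pattern was higher (ZNF267, with ZNF688 and ZNF311 lower) and 1 of 3 without it (ZNF143, with ZNF367 and ZNF629 lower). The higher genes had a median of 13 fingers (7 to 19) and the lower genes a median of 9 (2 to 19), against 10 over all listed ZNF genes.

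Median base composition differed by direction among the ZNF genes, as it did in the rest of the table, but the ranges overlapped. GC content was taken as the median over a gene's protein-coding transcripts. It had a median of 45.9% for the 9 higher ZNF genes (37.5% to 58.3%). For the 5 lower ones the median was 57.3% (43.9% to 66.3%). The other higher and lower genes had medians of 46.7% and 57.5%. Several annotated transcripts are short partial models, so that this value is not that of the full transcript for every gene. For ZNF134, whose median transcript length was 590 bases, it was 58.3%, whereas the longest transcript (4914 bases) had 44.1%. The values of ZNF267 were 45.9% and 36.5%, those of ZNF530 54.4% and 47.9%, and those of ZNF143 47.3% and 42.5%. By the longest transcript, a choice added after the data were seen, the 9 higher genes had a median of 41.1% (36.5% to 49.0%) and the 5 lower genes one of 57.3% (43.9% to 69.1%). ZNF311 (44.7%) and ZNF367 (43.9%), both lower, lay within the range of the higher genes by either measure. ZNF629 (57.3%), also lower, did so by the median over transcripts only. By the longest transcript ZNF358 (69.1%) was the highest.

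On chromosome 19 the ZNF genes had a median GC content of 42.6% by the longest transcript and the other called genes one of 63.2%. Within the GC range of all higher ZNF genes, 74.3% of 315 other called genes were higher in the knockdown by the longest transcript, and 65.8% of 473 by the median over transcripts. On chromosome 19 itself 3 of 7 were higher by the median, and by the longest transcript 0 other called genes fell in that range, so no such comparison could be made there. The part of GC content in the direction of the ZNF genes was not tested.

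**Figure D2:**
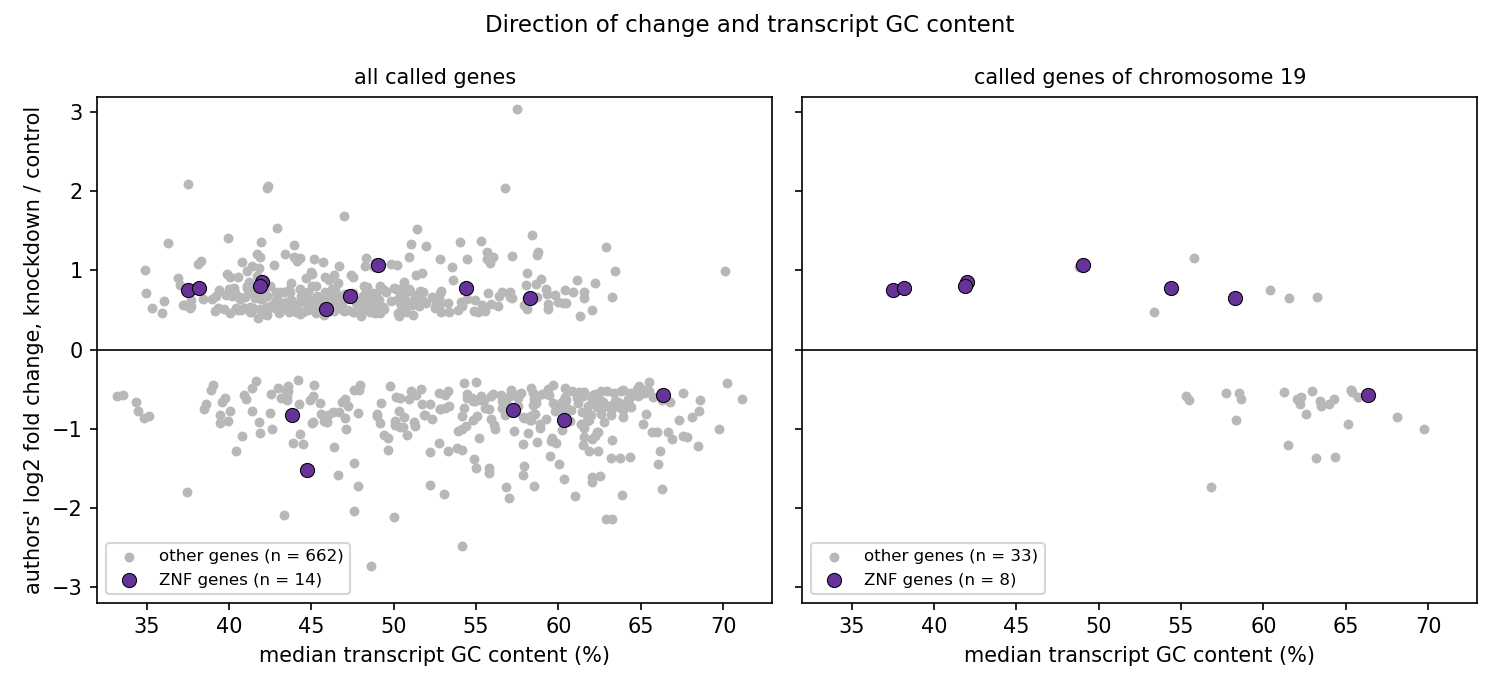
The authors' log2 fold change (y axis) against the median GC content of each gene's transcripts (x axis, percent), for all called genes (left) and those of chromosome 19 (right), with ZNF genes in purple and other genes in grey; 6 genes beyond 3.2 in either direction are not drawn. On chromosome 19 the higher ZNF genes spread over GC contents of 37.5% to 58.3%, while most other genes lie to their right and below 0.

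Sharing of sequence with related genes was limited in the gene table. The percent of the 31-base words of a gene's longest transcript that also occur in a transcript of another gene was 32.8% for ZNF700 and 20.9% for ZNF358. It was 8.19% for ZNF530 and at most 4.47% for the other 11. No member reached 50%. Reads of ZNF700 and ZNF358 could be divided with overlapping or similar genes in counting, where the authors' annotation held these. That annotation is not given, and how far the values of ZNF700 and ZNF358 are less certain for it was not tested.

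The 22 ZNF transcripts had larger values than the genes. Of these, 14 were higher and 8 lower (63.6% higher, against 51.0% of all transcripts in the table, and 36.4% lower, against 49.0%). An absolute log2 fold change of 6 or more was found for 18 of 22 (81.8%, against 79.1% of the table), and none was above 20. The 4 smaller changes were all higher: ZNF207 at 1.04 (Q = 0.000221), ZNF195 at 1.71 (Q = 0.0379), ZNF106 at 2.05 (Q = 0.0493) and ZNF610 at 2.51 (Q = 0.015) in the authors' deposited transcript table. ZNF106, an RNA-binding protein gene, was the member nearest the limit, and the largest Q of that table was 0.0497. The level behind these values is unknown, so a log2 fold change of 9 or 10 is not read as a ratio here.

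**Figure D3:**
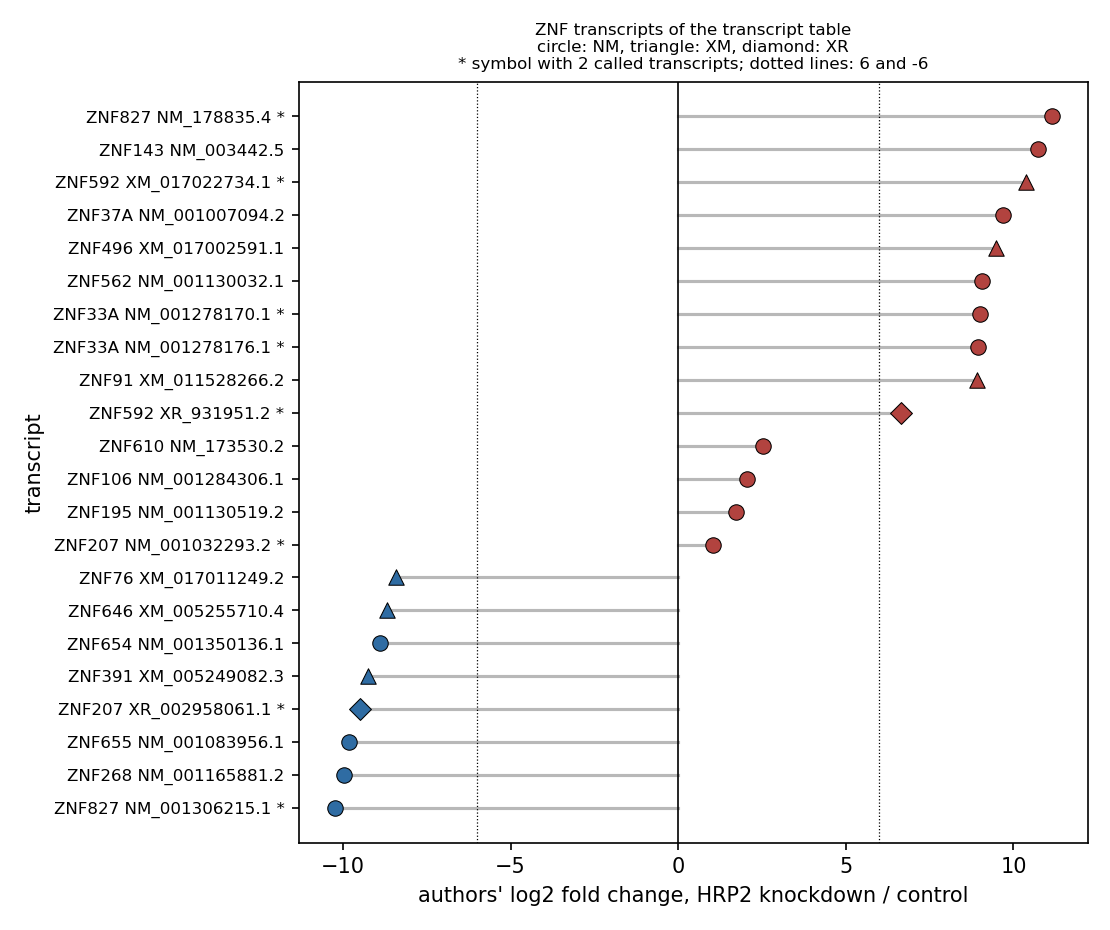
The authors' log2 fold change (x axis, knockdown over control) for each of the 22 ZNF transcripts (y axis, gene symbol and RefSeq accession), with curated coding transcripts (NM) as circles, predicted coding ones (XM) as triangles and predicted non-coding ones (XR) as diamonds. The 8 lower transcripts all lie below -8, the 14 higher ones run from 1.04 to 11.14, and of the 4 symbols with an asterisk ZNF827 and ZNF207 appear on both sides.

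Among the 10 large increases, ZNF827 was first at 11.14 (Q = 2.66e-08), followed by ZNF143, ZNF592 at 10.38 (Q = 1.42e-06), ZNF37A at 9.70 (Q = 0.000154), ZNF496 at 9.49 (Q = 0.0078) and ZNF562 at 9.05 (Q = 0.00349). ZNF496 encodes a partner of the H3K36 methyltransferase NSD1. The remaining ones were 2 of ZNF33A at 9.00 and 8.94, ZNF91 at 8.91 (Q = 0.00528) and a second of ZNF592 at 6.65 (Q = 0.00252). ZNF91 encodes a KRAB protein known for silencing SVA retrotransposons. ZNF33A and ZNF37A, both KRAB genes, are adjacent protein-coding genes on chromosome 10, and their 3 called transcripts were all higher. The other called genes of that chromosome were mostly higher as well, 24 of 28.

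The 8 large decreases were led by ZNF827 at -10.24 (Q = 1.59e-06), ZNF268 at -9.98 (Q = 2.19e-05) and ZNF655 at -9.82 (Q = 9.03e-05). ZNF655 encodes a protein that binds the signalling factor VAV1. Then came ZNF207 at -9.49 (Q = 0.000172), ZNF391 at -9.25, ZNF654 at -8.90 (Q = 0.0273), ZNF646 at -8.69 and ZNF76 at -8.42. Transcripts of genes with the KRAB pattern were higher in 7 of 8 cases, ZNF268 being the exception. Those of ZNF genes in which the search did not find it were higher in 7 of 14. The 3 transcripts from chromosome 19 (ZNF610, ZNF562 and ZNF91) were all higher.

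Apart from ZNF143, no gene with a called transcript was in the gene table, 1 of 18 (5.56%), against 117 of 878 (13.3%) over all symbols of the transcript table. Both tables come from the same libraries, so neither is independent support for the other. A called transcript without a called gene was the usual case for these genes.

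Of the 18 genes, 4 had more than 1 called transcript. In ZNF827, which encodes a protein that brings the NuRD complex to telomeres, NM_178835.4 was at 11.14 and NM_001306215.1 at -10.24. In ZNF207, which encodes the spindle and kinetochore protein BuGZ, NM_001032293.2 was at 1.04 and the predicted non-coding XR_002958061.1 at -9.49. In ZNF592 and ZNF33A both transcripts were higher. Opposed transcripts were common in the table as a whole: 89 of the 136 symbols with 2 or more called transcripts had both directions (65.4%), against 2 of these 4.

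How much sequence each called transcript holds alone was measured in GENCODE 29, where 14 of the 22 accessions, all NM, matched a transcript. A word of its own is a stretch of 31 bases found in no other GENCODE transcript of the same gene. The lower transcript of ZNF827 had 3248 such words (43.7% of its words), while the higher one had 28 (0.672%), all in 1 stretch. The called transcript of ZNF143 had 254 (8.71%), that of ZNF654 436 (6.80%) and that of ZNF610 116 (6.36%). ZNF268, ZNF655, ZNF195, ZNF562 and ZNF37A had none. In all, 9 of the 14 had under 31 words of their own (64.3%), beside 220 of 411 matched transcripts of the whole table (53.5%). Most matched ZNF transcripts thus held little sequence found in no other transcript of their gene. Sequence that others hold and a called transcript lacks is not counted here. The authors' annotation held predicted transcripts that GENCODE lacks, so these counts are not those their counting met.

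**Figure D4:**
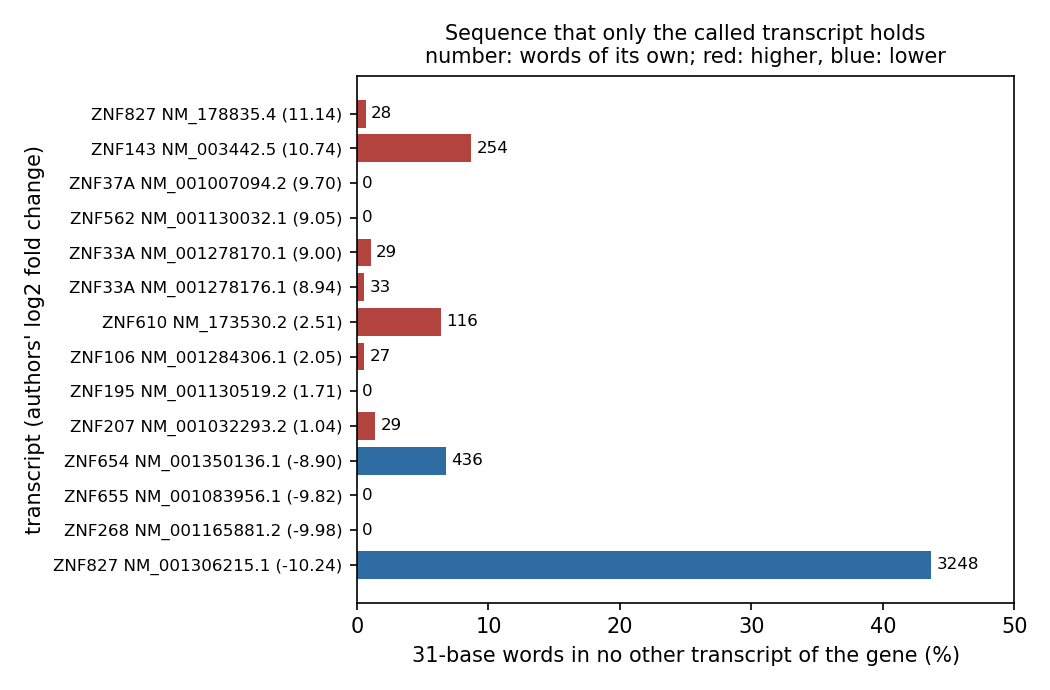
For the 14 ZNF transcripts matched in GENCODE 29 (y axis, with the authors' log2 fold change in brackets), the percent of 31-base words found in no other transcript of the gene (x axis), with the number of such words at the end of each bar, red for higher and blue for lower in the knockdown. Apart from the lower ZNF827 transcript with 3248 words, all bars lie below 9%, and 5 transcripts have no word of their own.

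For 2 of these transcripts, the coding stretch that holds all words of its own is shown from GENCODE 29. Small letters run to the end of one exon and capitals from the start of the next. A ZNF207 transcript (NM_003457.3) that leaves the same exon for another and was not called is shown beside them.
ZNF207 NM_001032293.2, log2 fold change 1.04: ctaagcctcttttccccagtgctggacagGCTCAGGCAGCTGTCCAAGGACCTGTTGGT
ZNF207 NM_003457.3, not in the table: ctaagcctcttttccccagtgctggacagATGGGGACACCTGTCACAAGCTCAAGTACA
ZNF33A NM_001278170.1, log2 fold change 9.00: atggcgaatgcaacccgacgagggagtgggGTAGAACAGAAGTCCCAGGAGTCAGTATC

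The 59 bases of ZNF207 hold all 29 words of its own of the higher transcript, and the small letters are the same in both ZNF207 lines. Each 31-base word found in that transcript alone thus crosses this join, although longer reads or read pairs can also tell transcripts apart by combinations of shared words. The ZNF33A stretch likewise holds all 29 of its words. Identical GENCODE transcripts stood behind several accessions in some cases: 9 accessions shared that of ZNF33A NM_001278176.1, 9 that of ZNF37A, 3 that of ZNF33A NM_001278170.1 and 2 each those of ZNF562 and ZNF654, so that the authors' value for one of these can depend on how reads were shared among them.

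Predicted models made up 8 of the 22 ZNF transcripts, 6 XM (27.3%, against 49.9% of the table) and 2 XR (9.09%, against 6.06%). All 4 changes under 6 were in NM transcripts, as were 132 of 217 (60.8%) such changes in the table. The accessions of 17 of the 22 were in the RefSeq table of GRCh38.p14 under any version (77.3%, against 66.0%). The 5 that were not are the XR transcript of ZNF207, both of ZNF592, and those of ZNF91 and ZNF496. ZNF91 also shared 24.9%, ZNF33A 20.3% (mostly with ZNF33B) and ZNF37A 16.6% of the words of its longest transcript with other genes.

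Around the ZNF genes, partners of KRAB proteins were too few to show a departure from the background. Of 25 listed genes for KRAB corepressors and heterochromatin, among them TRIM28, SETDB1, CBX5, ATRX and MORC2, none was in the gene table, against 2.81% of all mRNA genes listed. A called transcript was found for 1 of the 25 (4.00%, against 3.62% of all mRNA genes listed), that of CHD3, which encodes a NuRD remodeller that KRAB complexes recruit, at 22.73 (Q = 8.64e-07). Of 165 listed genes of other zinc finger families (symbols such as ZBTB, ZSCAN, ZFP, KLF and PRDM), 3 were called (1.82%): PRDM10 at 1.05 (Q = 0.0219), KLF9, a hormone-responsive factor gene, at -0.79 (Q = 0.0165) and ZFP36L1, an mRNA decay factor gene with fingers of another type, at -0.83 (Q = 0.0184). Their called transcripts numbered 9, 5 higher and 4 lower, with ZBTB7A on both sides, at 2.04 (Q = 0.0121) and -9.46 (Q = 0.000216) in the authors' deposited transcript table.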

How the data were processed

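RNA sequencing libraries of LP-1 cells, 2 per group, were made from Trizol-extracted RNA, per the labels' protocols. The submitters' processing notes name BWA, Bowtie2, RSEM and hg19 without roles; versions, annotation, strand, normalization and test: not given in the sources used here. The log2 fold changes and the Q values (adjusted p-values) of genes and transcripts were used as deposited by the authors. Other deposited tables gave names and RNA types, labelled other than as measurements. No library-level values were used, the planned fits on them were not run, no test was made, and depth is unknown.

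Members and lists were chosen with earlier results of these data known. Every gene row is named; named transcripts are those of genes in both tables or with 2 called transcripts, those under 6, and the 8 largest each way; ZNF91, the only ZNF transcript these leave out, was added after its value was seen. Motifs, printed promoters and joins were also chosen after seeing values.

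GC content and length are medians over protein-coding GENCODE 29 transcripts per Entrez gene, with the longest transcript as an alternative. Zinc fingers (cysteines 2 or 4 residues apart, then 12 residues, then histidines 3 to 5 apart) and KRAB A boxes were searched in the longest translation, and words were 31 bases, with Python 3.11.15 and pandas 2.3.3. The searches were tested on simulated sequences only, so how many KRAB domains of real proteins the pattern misses is unknown.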

Additional observations from a re-analysis of the deposited data

How the results depend on the processing

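No paired analysis was possible because the deposited tables used here hold no values per library; for the same reason no library could be left out in turn. Of 36 recomputed values, 23 kept their direction and lay within 1.5 times the reported value, 10 moved further and 3 changed sign. The lead of higher over lower ZNF genes (9 against 5) depended on small changes and on chromosome 19. With a Q value under 0.01 it was 1 against 2 (median log2 fold change -0.83), with absolute changes of 1 or more on the log2 scale it was 1 against 1 (median -0.23), and without chromosome 19 it was 2 against 4 (median -0.80). Fewer rows enter each of these. With other zinc finger families matched by name it was 10 against 7, or 10 against 6 without ZFP36L1, whose fingers are not C2H2 (added after seeing the data). By the longest transcript, also added then, median GC content was 41.1% for the higher ZNF genes (from 45.9%) and 57.3% for the lower ones, as before. Leaving out genes that share 50% or more of their words removed no member. Leaving out transcripts with an absolute log2 fold change of 20 or more removed none either. The values under both settings could therefore not move, and they are counted among the 23. For transcripts, 14 higher against 8 lower became 11 against 5 with a Q value under 0.01 (median 8.93, from 2.28) and 4 against 0 with an absolute log2 fold change under 6, where 0 ZNF symbols were in both tables. Without a depth, no limit of detection can be given for genes outside the tables.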
